A study of Mus musculus with 10 samples.

Results

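AP-1 family transcription factors were followed in the left ventricle of mice after thoracic aortic banding (TAB), a narrowing of the aorta that loads the heart with pressure, or after a sham operation. The family was taken as 10 genes, Fos, Fosb, Fosl1, Fosl2, Jun, Junb, Jund, Atf3, Maff and Batf, and its probes were those that carry one of these gene symbols. All 10 genes were on the array, with 11 probes among 26423, since Junb had 2 probes and the other 9 genes had 1 each. The array held 19942 gene symbols, and 16113 genes including all 10 members passed the filter on low values. The mice were male C57BL/6J, operated on at 8 weeks of age, and by their labels the 2 groups differed only in the operation. The left ventricle was taken 3, 5, 7, 14 or 28 days later, with 1 TAB and 1 sham sample per day, 5 samples per operation and 10 samples in all. The number of mice behind a sample is not given in the sources used here, and for the TAB sample titled day 14 another label states 15 days. Left ventricle holds cardiomyocytes together with fibroblasts, vessels and leukocytes, so fewer cells of a type and less RNA per cell cannot be told apart.

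AP-1 is a dimer of basic leucine zipper proteins. Fos family proteins (Fos, Fosb, Fosl1, Fosl2) cannot pair with each other and bind DNA with a Jun family partner (Jun, Junb, Jund), while ATF, MAF and BATF proteins enlarge the set of dimers and change which sites are bound. Fos and Junb are immediate-early genes, whose transcripts appear within minutes of a stimulus such as stretch, growth factors or handling of tissue and are short-lived. In the heart the family is known for its early answer to pressure load.

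Each value below is a normalized intensity, which is on a linear scale with no unit and is comparable between samples for the same probe but not between probes. A spot was read as found or not found from the deposited flag, whose meaning the sources used here do not state. The median raw intensity of an array ran from 34 to 57 and the share of probes not found from 40.2% to 47.3%. 7 members were found on all 10 arrays. Batf was found on 5 of 5 TAB arrays and on 2 of 5 sham arrays, those of days 3 and 28. Fosb and Atf3 were found on no array and have only levels that are not well above background, so no fold change is given for them. By the deposited detection p-value, taken under 0.05, Jun and Jund were detected on 10 arrays, Fos on 6, Fosl2 on 5, Fosl1 and Maff on 2, Junb on 1 by the probe used and on 6 by the other, and Batf, Fosb and Atf3 on 0, so the flag and the p-value part for the dimmer probes. All 12 cardiomyocyte markers were found on all 10 arrays.

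The results turn on Fos and Junb, so the 250 bases before their transcription start are shown, read from RefSeq promoters of GRCm38.p6 on the strand of the gene. Capitals mark TGACG, which is the 5' part of the site that CREB and ATF proteins bind, searched on both strands. Fos lies at chr12:85473640-85473889 on the plus strand and Junb at chr8:84978749-84978998 on the minus strand. The Maff promoter is added because it was the only one of the members that held the full site, which is TGACGTCA, and the window shown is 1 of 3 annotated for this gene, at chr15:79347270-79347519 on the plus strand.
Fos: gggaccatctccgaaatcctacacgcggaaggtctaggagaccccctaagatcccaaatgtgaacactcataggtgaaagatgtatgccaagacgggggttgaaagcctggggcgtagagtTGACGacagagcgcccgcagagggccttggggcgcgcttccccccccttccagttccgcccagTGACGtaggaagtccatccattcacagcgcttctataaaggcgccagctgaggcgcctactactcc
Junb: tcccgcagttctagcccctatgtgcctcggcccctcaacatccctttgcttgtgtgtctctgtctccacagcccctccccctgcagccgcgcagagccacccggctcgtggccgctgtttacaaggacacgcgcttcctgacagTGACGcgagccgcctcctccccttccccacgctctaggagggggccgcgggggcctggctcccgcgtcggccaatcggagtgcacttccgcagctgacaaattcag
Maff: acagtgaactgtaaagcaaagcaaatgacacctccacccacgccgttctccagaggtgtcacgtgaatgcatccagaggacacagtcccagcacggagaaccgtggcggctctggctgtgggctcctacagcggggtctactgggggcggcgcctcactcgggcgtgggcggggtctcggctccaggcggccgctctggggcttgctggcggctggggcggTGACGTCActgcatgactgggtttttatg
9 of the 10 members had a promoter in this table, in 11 windows, and Fosl1 had none. TGACG, which TGACGTCA contains, was in 7 of the 11 windows, those of Atf3, Batf, Fos, Fosb and Junb and 2 of Maff, and in 17.8% of all 32851 promoters of this length. Fos held it at 129 and 66 bases before the start and Junb at 106 bases before it. TGACGTCA was in 1.55% of all promoters. The AP-1 site itself, TGACTCA or TGAGTCA, was in 4.46% of all promoters and in no member's window, and the CArG box bound by serum response factor was in 1.47% and in no member's window. These are exact matches of letters in a short window and no measure of binding. Sites farther than 250 bases before the start and other forms of these sites were not searched. An absence here therefore does not mean that a gene lacks such a site.

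Fos was the member with the widest range. In TAB its normalized intensity read 448, 354, 377, 89.1 and 92.3 in the order of the days. In sham it read 262, 129, 238, 1159.6 and 174. The TAB samples of days 3 to 7 lay above every sham sample but that of day 14, the TAB samples of days 14 and 28 lay below every sham sample, and the sham sample of day 14 was the highest of all 10. The TAB and sham groups overlapped. The average TAB effect on Fos was −0.34 on the log2 scale with an SE of 0.75 (limma adjusted p = 0.781), with TAB higher on 3 of 5 days and lower on 2. The sign turned without the sham sample of day 14 in an unblocked fit (0.17, adjusted p = 0.854) and without day 14 (0.50, adjusted p = 0.435), with a range of 0.435 to 0.988 over 26 alternatives.

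Fosl1 and Fosl2, which encode the Fos-related proteins Fra-1 and Fra-2, lay lower in TAB than in the sham sample of the same day on 5 of 5 days. Fosl2 was 216, 200.3, 245, 286 and 343 in TAB on days 3, 5, 7, 14 and 28, and 416, 330.2, 449, 410.0 and 368 in sham. The log2 ratio was farthest from 0 on day 3 (−0.94) and nearest to it on day 28 (−0.10), where the TAB sample exceeded the sham sample of day 5, so the groups overlapped. Its average TAB effect was −0.63 with an SE of 0.15 on the log2 scale, a 1.55-fold lower level in TAB (limma adjusted p = 0.0412), and Fosl2 thus fell. Fosl1 was 182, 184, 134, 146 and 207 in TAB and 331, 286, 268, 192 and 214 in sham, which is a difference of −0.59 with an SE of 0.17 (adjusted p = 0.0580). In a fit without the day as a block it passed (adjusted p = 0.0402), with a range of 0.0175 to 0.160 over 26 alternatives. The same range for Fosl2 was 0.00566 to 0.127, and its call was lost in 8 of 26 alternatives. Fosb ran from 10.2 to 23.3 over the 10 samples and was found in none.

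Among the Jun genes, Junb varied most. Its probe used here read 236, 243, 205, 127 and 117 in TAB on days 3, 5, 7, 14 and 28, and 90.1, 67.6, 130.3, 311 and 71.1 in sham. The other Junb probe read 577, 556, 619, 325 and 251 in TAB and 205, 189.7, 331, 816 and 194 in sham. Both probes put the sham sample of day 14 highest of the 10 samples and TAB above sham on the other 4 days. The average effect was 0.66 with an SE of 0.44 (adjusted p = 0.329). In the fit without the block it was not called either (adjusted p = 0.2801), and leaving the sham sample of day 14 out of that fit gave 1.03 with an SE of 0.29 (adjusted p = 0.0364). In the blocked fit without day 14 the effect was 1.15 with an SE of 0.24 and was not called (adjusted p = 0.0555). Without day 5 in place of day 14 it was 0.37 with an SE of 0.45. The range of the adjusted p over 26 alternatives was 0.0364 to 0.639. Jun and Jund stayed within narrow ranges. Jun ran from 550.2 to 721 in TAB and from 553 to 649 in sham, with an average effect of 0.09 and an SE of 0.11 (adjusted p = 0.609). Jund ran from 864 to 1052 in TAB and from 778 to 908 in sham, with an average effect of 0.15 and an SE of 0.11 (adjusted p = 0.376).

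Batf, a leucine zipper protein without an activation domain that pairs with Jun proteins and is known from T, B and dendritic cells, was the member with the largest average effect. It read 59.2, 64.4, 75.4, 49.3 and 27.7 in TAB on days 3, 5, 7, 14 and 28, and 19.02, 13.1, 19.8, 17.01 and 15.4 in sham. Every TAB sample lay above every sham sample, which held for Batf alone among the members and for 17.7% of all genes in either direction. The TAB level was highest on day 7 and lowest on day 28, where it still exceeded the highest sham sample, that of day 7. The average effect was 1.65 with an SE of 0.21 on the log2 scale, 3.14-fold higher in TAB (limma adjusted p = 0.0154), and TAB was higher on 5 of 5 days. The fold is against the mean of all 5 sham arrays, on 3 of which the probe was not found, and the detection p-value of Batf was 0.792 or more on every array, so its size depends on sham readings near background. With 50 added to the intensities the effect was 0.64 on the log2 scale. The call was lost without day 3 (adjusted p = 0.0649), day 5 (0.0546) or day 7 (0.0697), where calls over all genes dropped from 2749 to 30, 98 and 22. The effect in these 3 fits was 1.65, 1.49 and 1.58. The range of the adjusted p over 24 alternatives was 0.000241 to 0.0697.

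Atf3 and Maff complete the family. Maff, a small MAF protein without an activation domain, read 227, 254, 339, 313 and 203 in TAB and 144, 263, 187, 171 and 189 in sham, with an average effect of 0.49 and an SE of 0.18 (adjusted p = 0.110, and 0.0433 to 0.2685 over 26 alternatives). It passed in 3 of these, with only probes found on all arrays (0.0433), with trend and robust fitting (0.0499) and without the sham sample of day 5 in the unblocked fit (0.0440). Its TAB samples of days 7 and 14 lay above every sham sample and the others overlapped. Atf3, a stress-induced factor, ran from 4.5 to 12.8 over all samples and was found in none. Its values lay lower in TAB on 5 of 5 days with adjusted p = 0.0645, and 0.0409 without the day block, which is a comparison between readings at background.

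**Figure D1:**
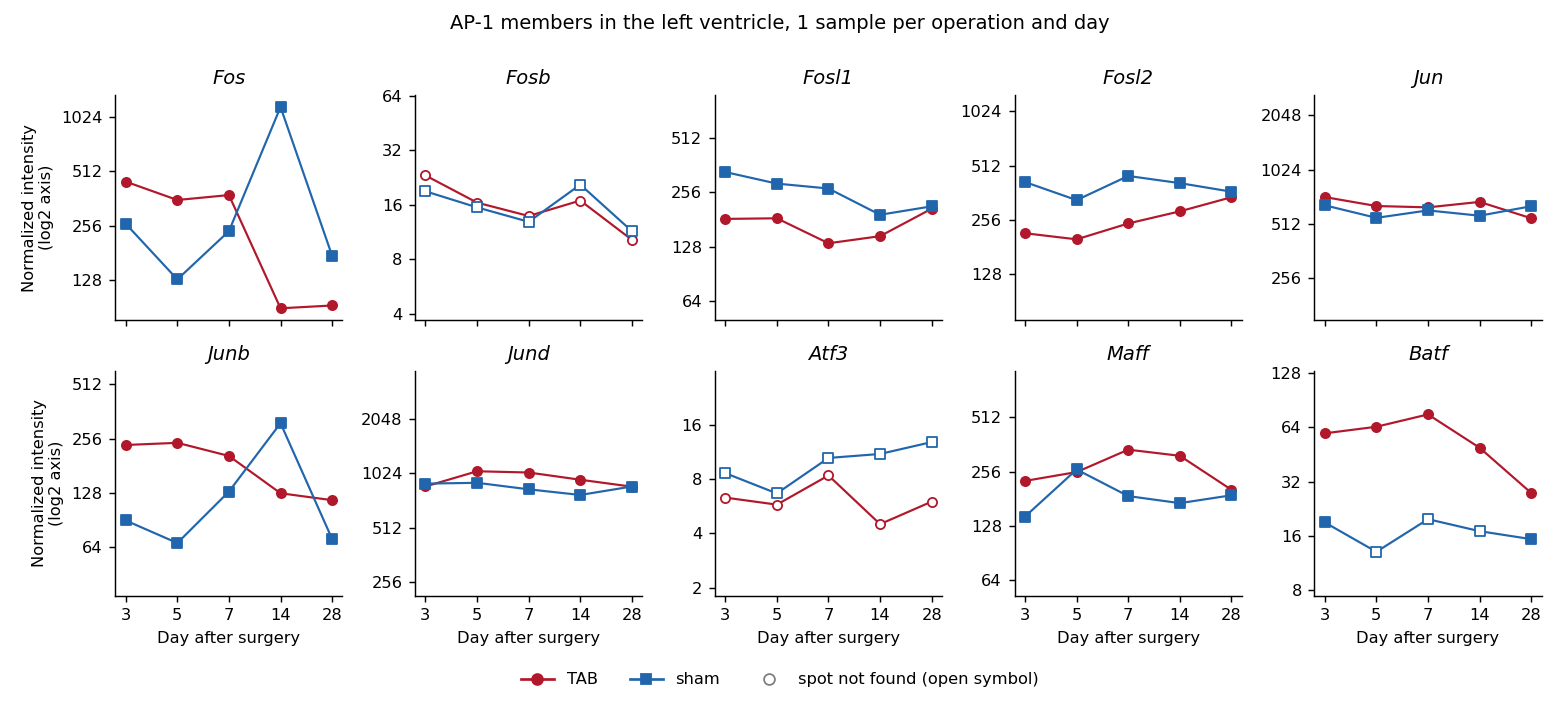
Normalized intensity (log2 axis, same span of fold in each panel) of each AP-1 member against the day after surgery, for 5 TAB samples (red circles) and 5 sham samples (blue squares), with open symbols for spots not found. Each point is 1 sample. Fos and Junb peaked in the sham sample of day 14, at 1159.6 and 311, and only for Batf did every TAB sample lie above, or every one below, all 5 sham samples.

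Over the family, 1 of 10 members rose (Batf) and 1 of 10 fell (Fosl2) by the average TAB effect at an adjusted p under 0.05, where 9.19% of all genes rose and 7.87% fell. The number of members called is close to that background. With median scaling only, the split over all genes moved from 1481 higher and 1268 lower to 1782 higher and 855 lower. Fosl2 was then no longer called, with an effect of −0.53 and an SE of 0.15 (adjusted p = 0.0588). The median effect of the members was 0.05 on the log2 scale, against −0.03 over all genes.

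**Figure D2:**
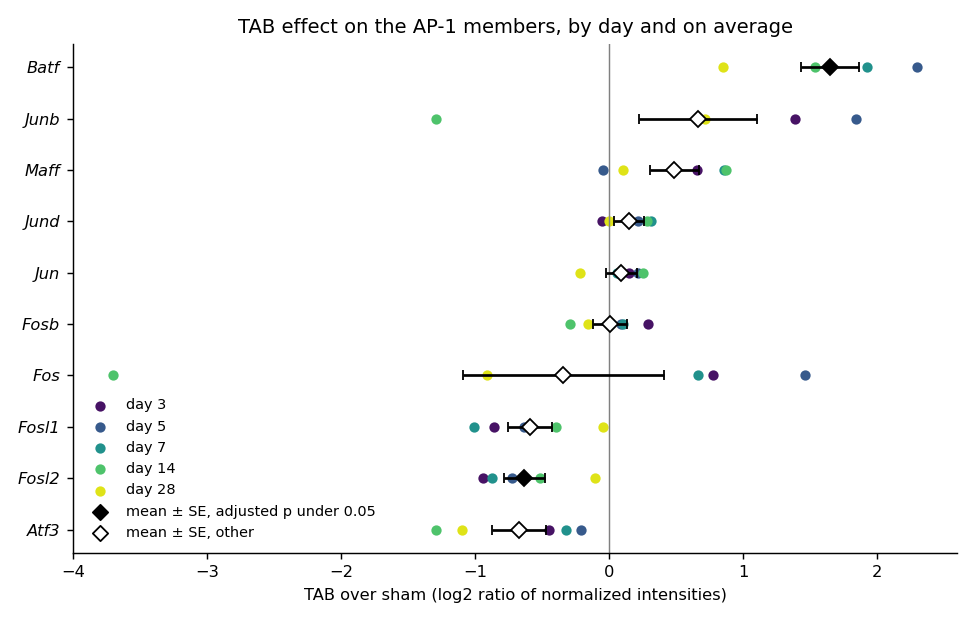
Log2 ratio of TAB over sham for each AP-1 member, with 1 coloured point per day and the mean over 5 days with its SE from limma as a diamond, filled where the adjusted p was under 0.05. Fosb and Atf3 were found on no array, so their points compare background readings. Batf and Fosl2 are filled, and the day 14 points of Fos (−3.70) and Junb (−1.29) lie apart from their other days.

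The day of the ratio mattered most for Fos. Its log2 ratio of TAB over the sham sample of the same day was 0.77, 1.46, 0.66, −3.70 and −0.91 in the order of the days. The ratios of the 3 early days were all above 0 and those of the 2 late days both below it. The mean ratio was 0.97 over days 3 to 7 and −2.31 over days 14 and 28, a difference of 3.27 with an SE of 0.86 (unadjusted p = 0.0122, limma adjusted p = 0.399, and 0.0555 to 0.626 over 26 alternatives). Junb differed by 1.58 between early and late days (adjusted p = 0.480) and Batf by 0.76. The Junb difference was 0.52 without the sham sample of day 14 in the unblocked fit and 0.58 without day 14. Over 26 alternatives it reached at most 2.65. That of Batf was 0.35 without the TAB sample of day 28 and 1.18 without the TAB sample of day 14, both in the unblocked fit. Of the 10 members 0 passed this test, as did 0% of the 16113 genes in limma with the day block, of which 1766 had an unadjusted p under 0.05. With trend and robust fitting 34 genes passed, and 0 members. On simulated data the blocked test recovered 11% of planted log2 changes of 2 and 51% of changes of 3, so a missing call says little. Without the sham sample of day 14 and without the block, the Fos difference was 1.91 (adjusted p = 0.190). The TAB samples alone also read higher on the early days, since the mean log2 level of Fos in TAB was 2.11 higher on days 3 to 7 than on days 14 and 28, that of Junb 0.90 higher and that of Batf 0.84 higher.

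For single days, the ratio of a gene counted as DE if it lay farther than 2 SD of all ratios of that day from 0, a rule without replicates and hence without a p-value. On day 3, 0 of 10 members were called, against 5.21% of all genes. On day 5 Batf was called higher (2.30, 5.52% of genes called in either direction) and on day 7 again (1.93, 5.66%). On day 14 Batf was called higher (1.53) and Fos lower (−3.70), against 5.67% of genes, and on day 28 no member was called, against 5.88%. On days 5, 7 and 14 the sham spot of Batf was not found, so these ratios of Batf are against background readings. Junb on day 5, at 1.84 against a threshold of 1.93, was the nearest member below the line.

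Both samples of day 14 lay far from their own group for Fos. The TAB sample lay 4.104-fold below the median of the other 4 TAB samples (log2 difference −2.04, threshold 1.03), and the sham sample was the highest of its group. The TAB sample of day 28 was also low (−1.99). Those of days 3 (1.31, threshold 1.16) and 7 (1.06, threshold 1.01) passed on the higher side. Each TAB sample was therefore also set against the median of the sham samples of days 3, 5, 7 and 28, which these 5 comparisons share. Against this reference the log2 ratio of Fos was 1.14, 0.80, 0.89, −1.19 and −1.14 on days 3, 5, 7, 14 and 28. On day 14 Fos was no longer called (threshold 1.33, 5.51% of genes called), whereas on day 28 it was called lower (threshold 1.07, 5.66% called). Junb, at 1.56, 1.599, 1.36, 0.67 and 0.54, turned from lower to higher on day 14 and was called on no day. Batf was called higher on days 3, 5, 7 and 14, with ratios of 1.79, 1.91, 2.14 and 1.53, where 5.21%, 5.36%, 5.21% and 5.51% of genes were called. Fosl2 (−0.85, −0.97, −0.67, −0.45 and −0.19) and Fosl1 (−0.60, −0.59, −1.05, −0.92 and −0.42) stayed below 0 on all 5 days and were called on none.

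**Figure D3:**
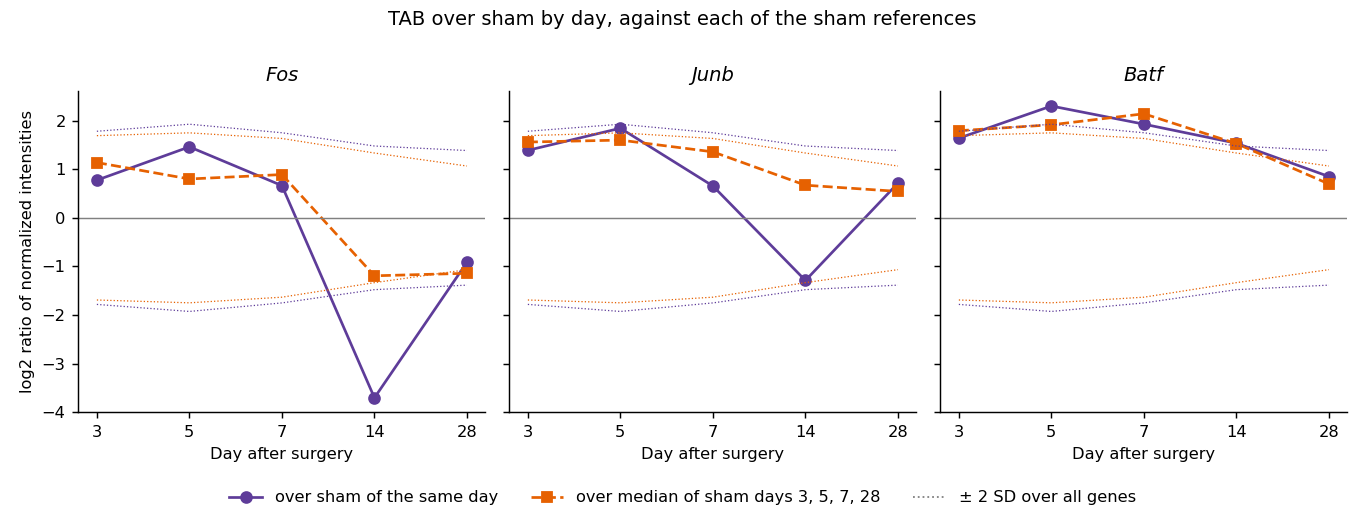
Log2 ratio of TAB over sham against the day after surgery for Fos, Junb and Batf, over the sham sample of the same day (circles) and over the median of the sham samples of days 3, 5, 7 and 28 (squares), with dotted lines at 2 SD over all genes. The references part on day 14 for Fos (−3.70 and −1.19) and Junb (−1.29 and 0.67) and not for Batf (1.53 in each).

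The sham sample of day 14 was then described by its excess over the median of the other 4 sham samples. Fos was 2.51 higher on the log2 scale, which is 5.69-fold and the 14th highest of 16113 genes, and Junb was 1.96 higher, 3.89-fold and the 28th. These 2 of 10 members passed 2 SD (1.02), as did 2.18% of all genes on the higher side. The other 5 members found on all arrays lay between −0.53 (Fosl1) and 0.07 (Fosl2). Over all genes the sample was not noisier than the rest, with an SD of 0.51 against its own group's median where the 10 samples ran from 0.47 to 0.58. The rank among genes found on all arrays by excess over the highest other sham sample was second for Fos (2.15) and seventh for Junb (1.26) of 10535 genes.

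Other genes moved with Fos and Junb in that sample. Egr1 and Nr4a1, immediate-early factors outside the AP-1 family, read 10503 and 2395 there against at most 2247 and 875 in the other sham samples. Of 6 EGR and NR4A genes measured, 3 passed 2 SD higher (Egr1 by 3.12, Nr4a1 by 1.98, and Egr2, found on 1 sham array) with a list median of 1.34, against −0.00 over all genes. Of 29 other immediate-early genes, 3 passed (Cyr61 by 1.598, Ier2 by 1.54, and Btg2, found on no array), with a median of 0.30. The 10 genes that exceeded the highest other sham sample most also held Apold1, Idi1, Nppb and a probe that carries the symbol Myh7 beside another symbol. That probe read 3997 against at most 1222 in the other sham samples. Nppb, a natriuretic peptide gene known as a marker of cardiac load, read 15606 against at most 6704 in the other sham samples and 14720.2 to 22177 in TAB, so the sham sample of day 14 lay within its TAB range, whereas the related Nppa read 16153 there, above the other sham samples (at most 9063) and below TAB (at least 27225). Of 18 genes that switch off the signals and transcripts of this class, 0 passed, with a median of 0.43. They were MAPK phosphatases, mRNA decay factors and signal inhibitors such as the Spry and Spred genes. Of 8 heat shock genes 0 passed, with a median of 0.38.

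Genes of other kinds also stood apart in the sham sample of day 14. Of 14 clock genes, 2 passed higher and 6 lower, where 3.53% of all genes passed on the lower side, among them Arntl (4.04), Per2 (−3.61) and Dbp (−3.34). Arntl read 1015 there, 936 in the sham sample of day 3 and 41.1 to 75.3 in the other 3 sham samples. The sham sample of day 3 thus had clock gene levels near those of day 14, with Dbp at 259 and 386 in the samples of days 3 and 14, while Fos was 262 and Junb 90.1 in the sample of day 3. The TAB sample of day 3 had similar clock gene levels (Arntl 868, Dbp 271 and Per2 211) and the highest Fos of the TAB samples (448), and the TAB sample of day 14 differed from its sham partner in Arntl (316) and Dbp (2572). Of 7 atrial markers 2 passed, Sln (1.26) and Nppa (1.03), 6 of 7 lay above all other sham samples (as did 3496 of all 16113 genes), the list's median was 0.92, and the intensities of its probes summed to 28151 against 12454 to 16489 in the other sham samples. Nppa, the brightest of these probes, made up 16153 of that sum. 6 of these 7 were found on all 10 arrays. In the TAB sample of day 14, where Fos was lowest, the log2 ratio to the median of the same 4 sham samples was −1.50 for Sln and −1.32 for Myl7, and 2.15 for Nppa. In the TAB sample of day 28, where Fos was as low (92.3), Sln (748) and Myl7 (1802) were at their highest among the TAB samples. The part of clock phase and of atrial tissue in the Fos and Junb values was not tested.

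**Figure D4:**
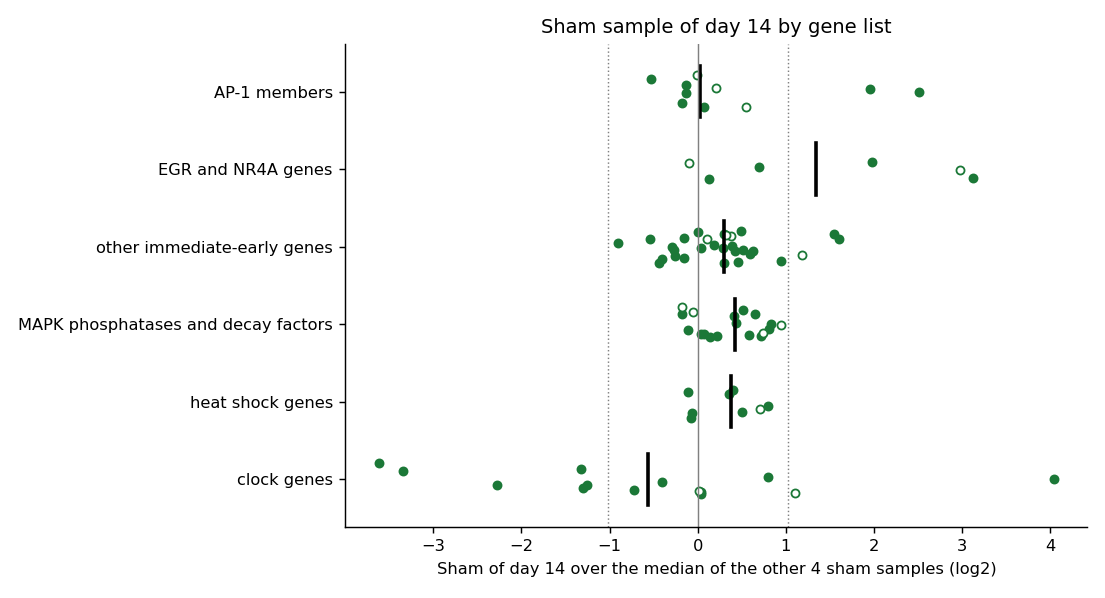
Log2 excess of the sham sample of day 14 over the median of the other 4 sham samples, with 1 point per gene (open where the spot was not found on all 10 arrays), a black bar at each list's median and dotted lines at 2 SD (1.02). Fos (2.51) and Junb (1.96) stand apart from the other AP-1 members, and EGR and NR4A genes have the highest median (1.34).

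The genes around the family were followed by lists. Of 27 other leucine zipper genes that can pair with AP-1 proteins or share its sites, 3 rose and 1 fell in TAB, shares near or below those over all genes (9.19% and 7.87%). Maf rose by 1.05, Cebpa by 0.86 and Batf3, a relative of Batf, by 0.77 on the log2 scale, and Bach1, a repressor that pairs with small MAF proteins, fell by 0.48. Of 35 kinases and activators upstream of AP-1, 4 rose and 1 fell, again near or below the shares over all genes. These were Rps6ka1 (0.97), Mapk11 (0.85), Map3k8 (0.72) and Rps6ka3 (0.66), and Map3k5 (−0.56). Of the 18 phosphatases, decay factors and signal inhibitors, Spred1 (0.89) and Dusp4 (found on 1 array) rose. Dusp1, which removes phosphate from JNK, p38 and ERK, fell by 1.25 with an SE of 0.20 (limma adjusted p = 0.0210). Dusp1 was 443, 707, 789, 1128 and 1085 in TAB on days 3 to 28 and 1759.7, 1658, 1552, 2991 and 1711 in sham, so the groups did not overlap. Of 29 other immediate-early genes, 3 rose (Ctgf 2.17, Id3 0.90 and Plk3 0.75), and of 6 EGR and NR4A genes 0 passed. Of 14 clock genes 1 fell (Nr1d1, −1.28), and of 8 heat shock and 11 hypoxia genes 0 passed.

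Genes that carry AP-1 sites or are known to answer to AP-1 were a list with many calls. Of 36 measured, 18 rose and 0 fell, beside the 9.19% and 7.87% of all genes given above, which also stand beside the marker counts that follow, and the list's median was 1.07 against −0.03 over all genes. Timp1, an inhibitor of matrix metalloproteinases, rose by 5.02, Spp1 (osteopontin) by 3.899 and Fn1 (fibronectin) by 2.80. Of the 18 called genes 4 (Cd44, Il6, Lor and Ereg) were found on no sham array, and no fold is given for them. The list was chosen with earlier results of these data known, so its count is not independent evidence, and many of its genes are also expressed by fibroblasts and leukocytes. In the same samples 6 of 8 fibroblast markers rose, with a median of 1.497 and intensities, weighted to the brightest probes, that summed to 30109 to 48343 in TAB and 20272 to 23464 in sham. Of 13 leukocyte markers 7 rose (1 of them, S100a8, found on no array) and 1 fell, with a median of 1.08 and intensities that summed to 2880.4 to 6121 in TAB and 2072 to 2602 in sham. The defining leukocyte gene Ptprc rose by 1.26 and Cd68, of macrophages, by 2.01, whereas Cd3e of T cells fell by 0.59. The part of these cells in the Batf and AP-1 target values was not tested. Of 12 cardiomyocyte markers 1 fell (Mb, −0.68), and of 8 endothelial markers 0 passed. In the smooth muscle list 2 of 6 rose, in the atrial list 2 of 7 rose and 1 fell, and in the blood cell list 1 of 5 rose.

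Among 10528 genes outside the family and found on all arrays, those whose log2 levels followed Fos most closely over the 10 samples were Rbm12 (Pearson r of 0.93), Prrx1 (0.92), Mef2c (0.89), Egr1 (0.89) and Pkdcc (0.88). Rbm12 and Prrx1 spanned only 0.52 and 0.70 on the log2 scale, where Fos spanned 3.70. Those that followed Batf were Vcan, Bak1, Ms4a7, Cysltr1 and Cdk5r1 (each 0.99). These values describe the same 10 arrays, in which the TAB and sham samples form 2 groups. Within the family Junb followed Fos with 0.75 over 10 samples and 0.64 over the 9 without the sham sample of day 14. Junb followed Batf with 0.60 over 10 and 0.92 over 9 samples, and Fosl2 ran opposite to Batf (−0.86 and −0.84).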

How the data were processed

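Left-ventricle mRNA of 5 TAB and 5 sham samples was measured on 1-colour oligonucleotide arrays. The authors deposited raw intensity per probe after a background subtraction, with no scaling across arrays, plus a detection p-value and a flag, a score whose negative value was read as a spot not found.

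Arrays were scaled to a common median, probes below 1 in any sample removed, and values put through quantile normalization (median of each rank) and log2. The probe with the greatest summed absolute log2 ratio stood for its gene. The average TAB effect, and its change from early (3 to 7) to late (14 and 28) days, were tested with limma 3.58.1 in R 4.3.3 (Benjamini-Hochberg over 16113 genes), with day as a block after the paper's ratios. Same-day deviations from the group means correlated with r = 0.113, −0.0165, 0.00650, 0.00292 and 0.0140 in the order of the days. Separate animals are not stated, so p-values measure only the spread between samples, and 10 arrays limit the precision. The days served as the replicates, so the error of the average effect also holds any change of that effect over the days. Scripts (Python 3.11.15) were tested on simulated data.

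Named genes were all members, up to 4 per list and direction with the largest called effect, the 5 most like Fos and Batf, and the 10 highest in the sham sample of day 14; Ptprc and Cd3e are named as defining markers. The members and lists were chosen with earlier results of these data known. Alternatives were 9 settings of normalization, filter and probe, other thresholds, references and fits, and samples left out, which for the early against late test was added after seeing the data. The miRNA arrays were not used here.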

Additional observations from a re-analysis of the deposited data

Results flagged for a closer look

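The Fos effect of TAB differed in direction between early and late days. All 3 ratios of days 3 to 7 were above 0 and both ratios of days 14 and 28 were below 0, a difference of 3.27 on the log2 scale that did not pass in limma (adjusted p = 0.399).

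The sham sample of day 14 was far from the other 4 sham samples for Fos and Junb on the linear scale. The gap to the nearest sham sample was 0.871 of the group's range for Fos, and 0.775 and 0.743 for the 2 Junb probes, above the critical value of 0.71 for 5 samples. On the log2 scale the gap for Fos was 0.677 of the range and 0 of 22 groups of samples passed, against 3 of 22 on the linear scale. Chance gives about 1 such result in 20 independent groups. The 3 results all rest on the sham sample of day 14, which had been picked out as high before these tests. Of the 3, 2 are probes of the same gene, Junb, so their number is no independent evidence.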

How the results depend on the processing

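By the average TAB effect 2 members passed. This became 1 with median scaling only, 1 with quantile normalization within each operation, 1 with probes below 1 set to 1 (675 genes called over all in place of 2749), 4 with trend and robust fitting (4194 genes) and 4 with no replicate block. It ran from 0 to 3 when 1 day was left out and from 1 to 4 when 1 sample was left out without the block. The 4 members without the replicate block were Batf, Fosl2, Fosl1 and Atf3, and the block changed no other member's call. Over all genes, calls also moved by over 1.5 times with 50 added to the intensity (4465) and without day 14 (947), and numbered 3598 without the block. The 4 calls by day became 1 with probes below 1 set to 1 and 12 with an absolute log2 ratio of at least 1 as the threshold. The 5 calls against the other sham samples became 1 and 12 under the same settings, and ran from 3 to 4 with 1 of the reference samples left out. The 2 members called in the sham sample of day 14 numbered 2 in all 15 alternatives, where Fos ran from 2.25 to 2.74 and Junb from 1.79 to 2.13. The early against late difference called 0 members in all 26 alternatives, and over all genes from 0 to 168, the latter without the sham sample of day 14 in the unblocked fit. Probes near background, above all Batf, Fosb and Atf3, limit what the signal can show.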
